A study of Mus musculus with 6 samples.

Results

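The 9 genes described here belong to the CD28 and B7 families of T cell costimulation and to the CD200 and CD47 pathways. They were chosen by symbol among the 18046 genes listed in each library, with earlier results of these data known. They are the receptor genes Cd28 and Icos, the ligand genes Cd80, Cd86, Cd274 (PD-L1) and Pdcd1lg2 (PD-L2), and Cd200, Cd200r1 and Cd47. The libraries came from naive CD4+ T cells of C57BL/6 mouse spleen, with an age of 3 weeks in the labels. They were stimulated in culture by CD3 and CD28 antibodies, in a medium that favours T helper 1 (Th1) cells, over 3 days, with vehicle (n = 3) or with 20 µM LPC (n = 3). Both groups received the CD28 antibody and the Th1 conditions, so the vehicle libraries are not from resting cells. The labels do not spell out LPC, do not name the vehicle, and do not tie libraries to animals or to cultures. The p-values therefore measure the spread between these libraries, which may be technical.

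CD28 is the costimulatory receptor of naive T cells. It binds CD80 and CD86, the B7 proteins best known from antigen-presenting cells, and ICOS is a related receptor that appears on activated T cells. CTLA-4 competes with CD28 for the same ligands and restrains the response, and PD-1 does so through PD-L1 and PD-L2. Activated T cells also make several of the ligands themselves. CD200 is a surface protein that signals inhibition through its receptor on myeloid and other cells, and CD47 binds SIRP-alpha on phagocytes as a signal against uptake.

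Transcripts of 3 B7 ligands, Cd80, Cd274 and Pdcd1lg2, fell with LPC, while Cd28 was listed at nearly the same level in both groups. Cd80 fell by 24.5%, Cd274 fell by 26.7% and Pdcd1lg2 fell by 24.1% in mean FPKM (fragment counts divided by exon length and by the mapped reads of each library). Icos and Cd200 lay below the vehicle range in every LPC library, and Cd86 above it, but none of these passed the test. The test was limma on log2(FPKM + 1), run on the 10138 genes that reached 1 FPKM in at least 3 libraries. P-values were adjusted by Benjamini-Hochberg over all of them, with a threshold of 0.05. Of the 9 genes 8 were tested, 3 fell, none rose and 5 did not pass. Cd200r1 stayed under the filter. Among all tested genes 13.7% passed in either direction, 7.91% lower and 5.82% higher with LPC, beside 3 of 8, all lower, here. The groups did not overlap for 6 of the 8 genes, 5 with LPC below and 1 with LPC above. Over all tested genes the groups did not overlap for 34.5%, 20.7% with LPC below and 13.7% above. At an unadjusted p under 0.05, 5 of the 8 were lower and 1 was higher, beside 17.9% lower and 12.2% higher over all tested genes. None of the 8 passed with a change over 2-fold on the log2(FPKM + 1) scale, as 20 of all tested genes did (0.197%). The median log2 change of the 8 genes was -0.28, beside -0.04 over all tested genes.

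Facts of the whole set bear on these values. The labelled cell type matched its markers, since all 10 T cell markers were tested and Cd3e, Cd3g and Cd4 were listed at 91.2 to 205 FPKM. Their summed FPKM was 2008 to 2093 with vehicle and 1954 to 2076 with LPC, and 1 of the 10, Il7r, was called lower. FPKM sums ran from 556561 to 641026, highest in LPC replicate 3, which also had the fewest genes at 0 (17.9%, against 19.4% to 20.2% elsewhere). On the first principal component (58.4% of the variance) LPC libraries lay at 3.03 to 21.1 and vehicle libraries at -15.8 to -8.43. Of the genes called, 42.4% were higher with LPC, and 53.1% after median centring. The count of calls, 1392, fell to 513 without vehicle replicate 1, to 566 without vehicle replicate 2 and to 702 without LPC replicate 1. In bulk RNA, fewer cells of a type and less RNA per cell cannot be told apart. Depth was estimated at 19.00 to 19.50 M reads per library from the steps between low values.

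The promoter windows of the 3 ligands that fell are printed because these transcripts moved in the same direction, 2 of them from neighbouring genes. RefSeq promoter windows (GRCm38.p6, 250 bases before to 50 after a transcript start) matched 5 of the 9 genes, Cd80, Cd274, Pdcd1lg2, Cd200 and Cd47. Capitals mark matches to any of 7 motifs, each searched on both strands: AP-1 (TGANTCA), the STAT site GAS (TTCNNNGAA), a shortened ISRE core bound by IRF factors (GAAANNGAA), a shortened NF-kB form (GGNNNTTCC), the NFAT core (GGAAAA), EGR (GCGNGGGCG) and NR4A (AAAGGTCA).
Cd80 (chr16:38458683-38458982, plus strand): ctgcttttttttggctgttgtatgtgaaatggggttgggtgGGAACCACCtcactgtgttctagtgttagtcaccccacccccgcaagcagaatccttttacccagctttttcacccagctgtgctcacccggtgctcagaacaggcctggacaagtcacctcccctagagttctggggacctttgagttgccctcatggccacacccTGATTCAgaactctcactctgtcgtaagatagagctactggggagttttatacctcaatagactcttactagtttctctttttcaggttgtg
Cd274 (chr19:29367188-29367487, plus strand): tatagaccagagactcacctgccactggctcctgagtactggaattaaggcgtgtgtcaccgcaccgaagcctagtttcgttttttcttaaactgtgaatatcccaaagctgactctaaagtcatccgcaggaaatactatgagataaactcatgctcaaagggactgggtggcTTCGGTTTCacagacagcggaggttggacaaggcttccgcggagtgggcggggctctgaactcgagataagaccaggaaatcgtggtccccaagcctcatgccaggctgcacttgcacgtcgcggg
Pdcd1lg2 (chr19:29410669-29410968, plus strand): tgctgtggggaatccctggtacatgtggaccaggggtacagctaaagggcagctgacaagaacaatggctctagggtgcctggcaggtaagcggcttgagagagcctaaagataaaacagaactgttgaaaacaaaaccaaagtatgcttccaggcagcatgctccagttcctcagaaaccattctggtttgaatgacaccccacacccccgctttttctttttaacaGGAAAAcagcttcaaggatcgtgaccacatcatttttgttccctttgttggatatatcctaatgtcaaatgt
The Cd80 window held 1 AP-1 match, TGATTCA, starting 42 bases before the transcript start, and 7.81% of 32851 windows of this length hold one. It also held 1 match to the NF-kB form on the minus strand, starting 209 bases before the start, which 18.5% of windows hold. The Pdcd1lg2 window held 1 NFAT core match starting 22 bases before the start, which 23.4% of windows hold. The Cd274 window held 1 ISRE core match on the minus strand, starting 76 bases before the start, which 8.56% of windows hold. The Cd80 and Cd274 windows lie inside the listed spans of their genes, which begin at 38457430 and 29362107. Positions there count from the transcript start of the window and not from the start of the gene span. Of the other motifs, the share of windows with a match was 8.30% for GAS, 5.55% for EGR and 1.51% for NR4A. The Cd200 window, not printed, held 1 EGR match starting 38 bases before the start, and Cd47 held no match. The ISRE and NF-kB matches depend on the form searched: both forms were shortened by 1 base after a first search of these windows, and neither the Cd274 nor the Cd80 window held a match to the longer form (3.44% of windows hold the longer ISRE form and 5.56% the longer NF-kB form). The 3 printed windows shared none of the 7 motifs. A match describes letters and not a bound site.

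Levels spanned a wide range, and FPKM, which is scaled for length, allows genes to be ordered. In vehicle libraries Cd47 stood highest at 148.3 to 160.1 FPKM, then Cd200 at 136.4 to 147.2, Cd28 at 102.9 to 123.8 and Icos at 87.7 to 94.4. The ligands were lower, with Cd274 at 26.6 to 27.4 FPKM, Pdcd1lg2 at 15.9 to 19.8, Cd80 at 13.8 to 14.5 and Cd86 at 1.37 to 1.44. None of these neighbouring ranges overlapped with vehicle. With LPC the ranges of Cd47, Cd200 and Cd28 overlapped one another, so their order was within the spread, while Icos, Cd274, Pdcd1lg2, Cd80 and Cd86 kept separate ranges. By mean FPKM over the 6 libraries, Cd47, Cd200, Cd28 and Icos lay at percentiles 94.7, 94.1, 93.1 and 90.3 of the tested genes, and Cd86 at 5.7.

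**Figure D1:**
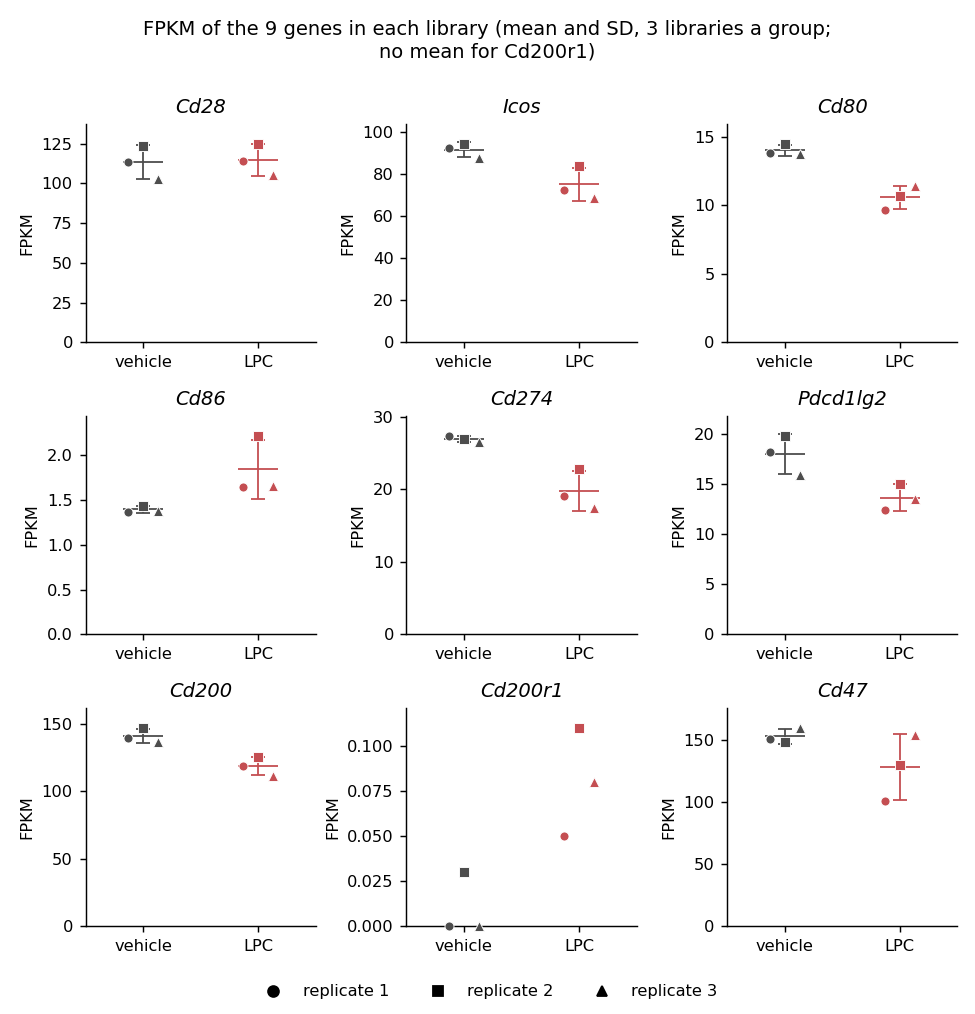
FPKM of each of the 9 genes (vertical axes from 0, scaled per gene) in the vehicle and LPC libraries, with 1 symbol per replicate number and bars for the mean and SD of 3 libraries. All 3 LPC libraries lie below all 3 vehicle libraries for Icos, Cd80, Cd274, Pdcd1lg2 and Cd200 and above them for Cd86, while Cd28 and Cd47 overlap.

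Cd28, the receptor that the stimulating antibody engages, showed no detectable change. Its values were 113.6, 123.8 and 102.9 FPKM in vehicle replicates 1 to 3 and 114.1, 125.0 and 105.2 FPKM in LPC replicates 1 to 3. The groups overlapped throughout, and the spread within each group (SD 10.5 and 9.93 FPKM, n = 3 each) exceeded the distance between the means. The log2 change was 0.02 (SE 0.10, 95% interval -0.20 to 0.23, limma adjusted p = 0.933). The interval leaves room for a fall of the mean by 12.7% or a rise by 17.2%. Estimated reads on its single listed transcript numbered 8685 to 10458 per library.

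Icos, the inducible receptor of the family, was lower in each LPC library but missed the threshold. It was listed at 92.6, 94.4 and 87.7 FPKM with vehicle and at 72.4, 84.0 and 68.8 FPKM with LPC. The highest LPC value, in replicate 2, lay under the lowest vehicle value. The LPC mean was 82.0% of the vehicle mean (log2 change -0.29, SE 0.09, 95% interval -0.49 to -0.09, limma adjusted p = 0.0576). It passed in 2 of 13 alternatives, without LPC replicate 2 (adjusted p = 0.0163) and with the replicate number as a block (0.0105). The highest adjusted p was 0.21, without vehicle replicate 2.

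Cd28, Ctla4 and Icos lie in that order on chromosome 1 (GRCm38), Cd28 at 60746388 to 60773359 and Icos at 60960773 to 61000322. Cd28 and Ctla4 are 135.7 kb apart and Ctla4 and Icos 44.9 kb apart, with no other listed gene between them. The log2 changes of these 3 neighbours were 0.02, 0.14 and -0.29, and none of them passed the test. Ctla4 was listed at 219.7, 219.2 and 211.1 FPKM with vehicle and at 238.1, 236.3 and 243.4 FPKM with LPC. Its LPC values were all above the vehicle values, yet it did not pass (log2 change 0.14, limma adjusted p = 0.276). The ratio of Icos to Cd28 FPKM within a library was 0.815, 0.763 and 0.852 with vehicle and 0.635, 0.672 and 0.655 with LPC. The ratio of Icos to Ctla4 was 0.423 ± 0.00770 with vehicle and 0.314 ± 0.0374 with LPC (SD, n = 3 each). Both ratios were lower in every LPC library than in any vehicle library, as a description without a test.

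**Figure D2:**
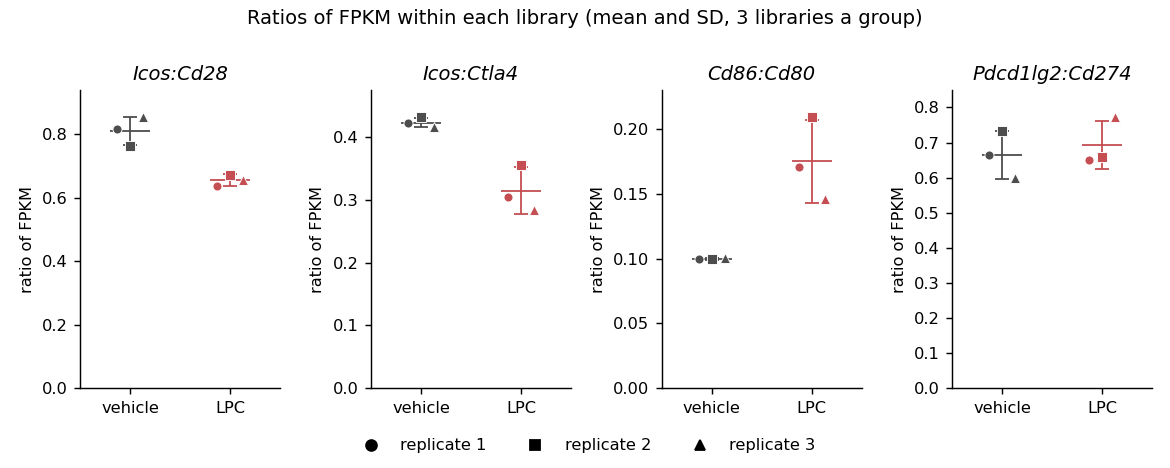
Ratios of FPKM between 2 genes of the same library (vertical axes from 0), with 1 symbol per replicate number and bars for the mean and SD of 3 libraries a group. Icos to Cd28 and Icos to Ctla4 are lower and Cd86 to Cd80 is higher in every LPC library, while Pdcd1lg2 to Cd274 overlaps.

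Cd274 encodes PD-L1, a ligand of PD-1 that many cell types make in response to interferon-gamma. It was listed at 27.4, 27.0 and 26.6 FPKM with vehicle and at 19.1, 22.8 and 17.5 FPKM with LPC. The vehicle libraries were nearly equal (coefficient of variation 1.48%), and all LPC libraries lay below them with a wider spread (13.8%). The log2 change was -0.44 (SE 0.10, 95% interval -0.66 to -0.22, limma adjusted p = 0.0139). Estimated reads on its single listed transcript numbered 1202 to 1910 per library.

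Pdcd1lg2 encodes PD-L2, the other ligand of PD-1. Its values were 18.2, 19.8 and 15.9 FPKM with vehicle and 12.4, 15.0 and 13.5 FPKM with LPC. The groups did not overlap, though vehicle replicate 3 and LPC replicate 2 lay close to each other. The log2 change was -0.37 (SE 0.11, 95% interval -0.60 to -0.15, limma adjusted p = 0.0334). Cd274 and Pdcd1lg2 lie 22.8 kb apart on chromosome 19, Cd274 at 29362107 to 29388095 and Pdcd1lg2 at 29410919 to 29472927, with no listed gene between them. Their ratio, Pdcd1lg2 to Cd274, was 0.665 ± 0.0678 with vehicle and 0.693 ± 0.0679 with LPC (SD, n = 3 each), and the groups overlapped.

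Cd80 encodes B7-1, a ligand shared by CD28 and CTLA-4 that also binds PD-L1. It was listed at 13.8, 14.5 and 13.8 FPKM with vehicle and at 9.68, 10.6 and 11.4 FPKM with LPC. All LPC values lay below the vehicle values, with LPC replicate 1 the lowest. The log2 change was -0.38 (SE 0.09, 95% interval -0.58 to -0.18, limma adjusted p = 0.0195). The gene lies on chromosome 16 at 38457430 to 38495958.

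These 3 calls were not kept in every fit, and a fit without 1 library has less power. Without vehicle replicate 1 none of the 3 passed (adjusted p = 0.0775 for Cd80, 0.0645 for Cd274 and 0.124 for Pdcd1lg2), nor without LPC replicate 1 (0.0743, 0.0563 and 0.12). Without vehicle replicate 2 Cd80 (0.0942) and Pdcd1lg2 (0.164) did not pass, and with no filter on low values none did (0.0559, 0.0643 and 0.103). Pdcd1lg2 also missed after median centring (0.053). The log2 changes over all alternatives stayed at -0.43 to -0.31 for Cd80, -0.54 to -0.32 for Cd274 and -0.45 to -0.30 for Pdcd1lg2. Without LPC replicate 3, the library with the highest FPKM sum, all 3 passed (0.0098, 0.0254 and 0.0435).

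Cd86 encodes B7-2, the second ligand of CD28 and CTLA-4, and was barely expressed. Its values were 1.37, 1.44 and 1.38 FPKM with vehicle and 1.65, 2.22 and 1.66 FPKM with LPC. The LPC values were all higher, and LPC replicate 2 stood above the other two. The log2 change was 0.24 (SE 0.11, 95% interval 0.01 to 0.47, limma adjusted p = 0.143), and it did not pass in any of the 12 alternatives that tested it (0.0586 to 0.302). With a pseudocount of 0.1, which compresses low values less, the log2 change was 0.36. The ratio of Cd86 to Cd80 was 0.0994, 0.0995 and 0.1004 with vehicle and 0.170, 0.209 and 0.146 with LPC. Cd86 therefore remained the scarcer transcript in every library, by a smaller margin with LPC. Both genes lie on chromosome 16, 1791.3 kb apart.

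Markers of cells that are known for B7 ligands were low in these libraries. Of 14 listed macrophage, monocyte and dendritic cell markers 12 stayed under 1 FPKM in all libraries, with Csf1r at most 0.01, Adgre1 and Itgax at most 0.05 and Cd14 at most 0.16 FPKM. Their summed FPKM was 6.51 to 8.60 with vehicle and 5.03 to 6.59 with LPC, mostly Cd68 and Zbtb46. Zbtb46, a transcription factor gene used as a dendritic cell marker, fell from 2.72 to 2.87 FPKM with vehicle to 1.17 to 1.5 FPKM with LPC (limma adjusted p = 0.00139). Of 10 B cell markers 9 stayed under 1 FPKM, with Ms4a1 at most 0.08 FPKM. Their sums were 2.38 to 3.04 with vehicle and 2.85 to 3.16 with LPC, mostly Ebf1, which rose (adjusted p = 0.0362). Of 7 listed neutrophil markers 6 were under 1 FPKM, among them Elane at 0 in all libraries. Their sums were 1.61 to 2.54 with vehicle and 1.5 to 3.13 with LPC. Of 8 markers of CD8 T cells or NK cells 6 were under 1 FPKM, among them Ncr1 and Klra8 at 0 in all libraries, and the sums were 14.2 to 15.6 and 13.4 to 13.8, mostly Cd8b1. The part of these cells in the ligand values was not tested.

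**Figure D3:**
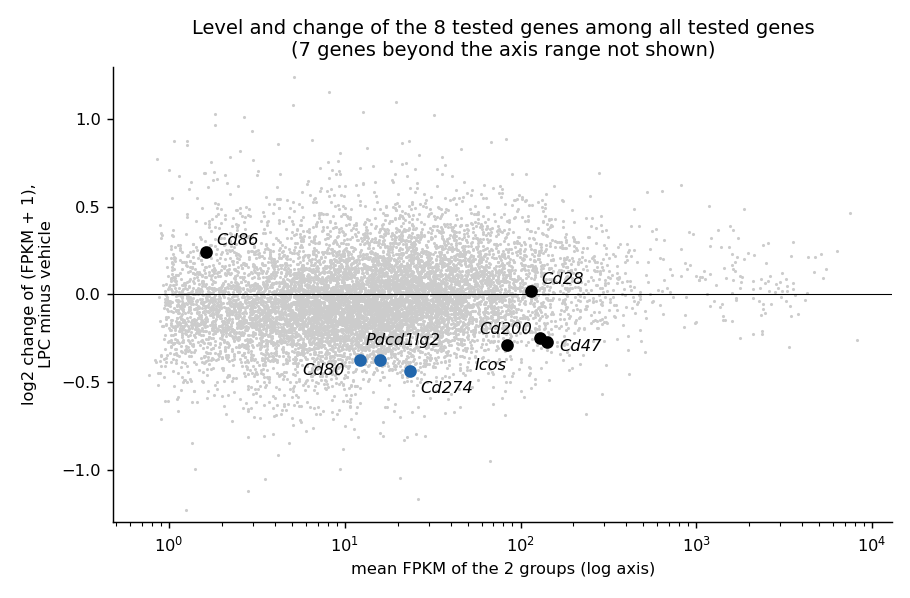
Mean FPKM of the 2 groups (log axis) against the log2 change with LPC for the 10138 tested genes (grey), except 7 beyond the axis range. The 8 tested genes of the part are labelled, with those that passed in blue. Cd274, Cd80 and Pdcd1lg2 lie at -0.44, -0.38 and -0.37 at intermediate levels, the abundant Cd47, Cd200 and Icos at -0.27, -0.25 and -0.29, and Cd28 at 0.02.

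Cd200 encodes a surface glycoprotein whose receptor restrains myeloid cells. It was listed at 139.7, 147.2 and 136.4 FPKM with vehicle and at 119.0, 125.4 and 111.7 FPKM with LPC. The groups did not overlap, and the LPC mean was 84.1% of the vehicle mean. The log2 change of -0.25 (SE 0.09, 95% interval -0.44 to -0.06) missed the threshold (limma adjusted p = 0.0738). It passed in 3 of 13 alternatives. These were without LPC replicate 2 (0.0404), with the replicate number as a block (0.0198), and with GC and length trends removed (0.0456). The highest adjusted p was 0.304, without vehicle replicate 2.

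Cd200r1, which encodes the receptor of CD200, was listed at 0, 0.03 and 0 FPKM with vehicle and at 0.05, 0.11 and 0.08 FPKM with LPC. This came to an estimated 0, 1 and 0 reads with vehicle and 2, 4 and 3 reads with LPC, so no fold change is given. In a fit without the filter it did not pass (limma adjusted p = 0.089). Its relatives Cd200r2, Cd200r3 and Cd200r4 were listed at no more than 0.06, 0 and 0.15 FPKM. Ligand transcripts were thus abundant and receptor transcripts at or near 0 in the same libraries. Cd200 and Cd200r1 lie 587.1 kb apart on chromosome 16.

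Cd47, the ligand of SIRP-alpha, was the most abundant of the 9 transcripts with vehicle and the most variable of the 8 tested with LPC. It was listed at 151.1, 148.3 and 160.1 FPKM with vehicle and at 100.98, 130.1 and 154.4 FPKM with LPC. LPC replicate 3 lay inside the vehicle range, and LPC replicate 1 far under it. The log2 change was -0.27 (SE 0.13, 95% interval -0.54 to 0.00014, limma adjusted p = 0.167). The call and the size of this value depended on which library was left out. Without LPC replicate 3 it was -0.41 and passed (adjusted p = 0.0194), and without LPC replicate 1 it was -0.11 (0.51). The gene lies on chromosome 16 at 49851328 to 49912503.

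Of 13 partners of CD47 and CD200, 6 were tested and none passed with limma. At an unadjusted p under 0.05 (17.9% of all tested genes lower) 2 were lower, the integrin genes Itgav (log2 change -0.32, adjusted p = 0.0605) and Itgb3 (-0.35, 0.0713), named after their values were seen. Without LPC replicate 2, 1 member of the list passed. The CD47 partners Sirpa and Thbs1 (thrombospondin-1) were listed at no more than 0.04 and 0.03 FPKM in any library. Qpctl, whose enzyme modifies CD47 for binding to SIRP-alpha, was listed at 5.95 to 6.92 FPKM with vehicle and 7.07 to 7.36 FPKM with LPC and did not pass (0.13, adjusted p = 0.362).

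The 8 listed relatives of the B7 and CD28 families outside the 9 genes include Tnfrsf14, a TNF receptor family gene listed as the ligand gene for Btla. Of these 8 genes 5 were tested, 3 fell, none rose and 2 did not pass (limma), beside 7.91% lower and 5.82% higher over all tested genes. At an unadjusted p under 0.05, 4 were lower, Tnfrsf14 among them, and none higher, beside 17.9% and 12.2% over all tested genes. The median log2 change was -0.30, beside -0.04 over all tested genes. Btla, an inhibitory receptor of the wider family, was listed at 74.2, 85.6 and 76.8 FPKM with vehicle and at 58.3, 66.3 and 49.8 FPKM with LPC (log2 change -0.44, adjusted p = 0.0175). Pdcd1, which encodes PD-1, the receptor of both PD-L1 and PD-L2, was listed at 28.0, 27.1 and 30.6 FPKM with vehicle and at 22.3, 23.0 and 23.5 FPKM with LPC (-0.30, adjusted p = 0.0361). Vsir, which encodes the inhibitory protein VISTA, was listed at 14.6 to 15.4 FPKM with vehicle and 10.4 to 11.6 FPKM with LPC (adjusted p = 0.00896) and passed in all 13 alternatives. The receptor PD-1 and both of its ligands were thus lower at the transcript level in the same libraries. Tnfrsf14, which encodes the BTLA ligand HVEM, did not pass (-0.26, adjusted p = 0.143). Icosl, the ligand gene of ICOS, was listed at 0.04 to 0.09 FPKM with vehicle and 0.15 to 0.32 FPKM with LPC, under the filter.

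With vehicle replicate 1 or 3 left out 2 of these relatives fell, and with vehicle replicate 2 or LPC replicate 1 left out 1 fell. The call of Pdcd1 was lost without any 1 vehicle replicate (adjusted p = 0.0905 to 0.147), without LPC replicate 1 (0.0959), and after median centring (0.0741) or with no filter (0.0607). Btla missed the threshold without vehicle replicate 2 (0.0757), without LPC replicate 1 (0.0567) or with no filter (0.0837).

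**Figure D4:**
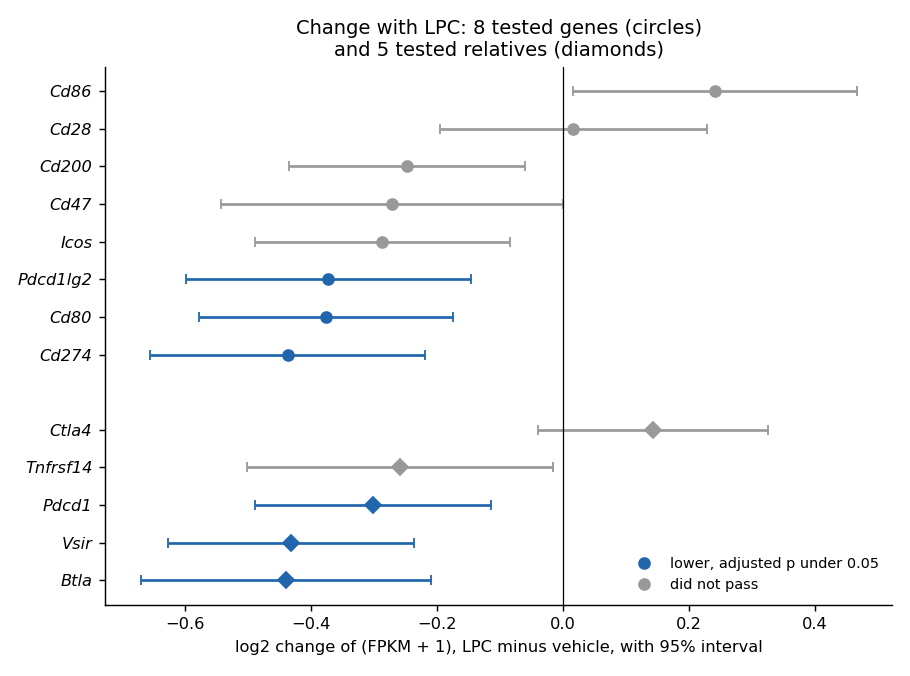
Log2 change of FPKM + 1 with LPC and its 95% interval for the 8 tested genes (circles) and 5 tested relatives (diamonds), blue where lower at an adjusted p under 0.05 and grey where not passed. Cd274, Cd80 and Pdcd1lg2 and, among the relatives, Btla, Vsir and Pdcd1 are blue, while Cd28 and Ctla4 have intervals that include 0.

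Of 25 tested genes that carry the signal of CD28 and ICOS, 1 rose, 4 fell and 20 did not pass (limma), beside 5.82% higher and 7.91% lower over all tested genes. At an unadjusted p under 0.05, 9 were lower and 1 higher, beside 17.9% and 12.2% over all tested genes, with a median log2 change of -0.14 beside -0.04 over all tested genes. Grap2, the adaptor GADS that binds CD28 and SLP-76, fell from 22.4 ± 0.643 to 16.5 ± 1.85 FPKM (SD, n = 3 each). Akt1, a kinase downstream of PI3K, rose from 61.2 ± 3.69 to 82.3 ± 6.28 FPKM (0.42, adjusted p = 0.0104).

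Several of these calls ended without 1 library. With vehicle replicate 1 or 2 left out 1 gene of the list fell, with LPC replicate 1 left out 2 and with LPC replicate 2 left out 7, and no gene rose without vehicle replicate 1 or 2. Akt1 had adjusted p-values of 0.054 and 0.0593 in those latter 2 fits, and Grap2 of 0.0534 and 0.0561. With no filter on low values 1 gene of the list fell and 1 rose, and Grap2 missed (0.0551).

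Of 15 tested relays of inhibitory receptors and T cell tolerance 4 fell, none rose and 11 did not pass (limma), where 7.91% of all tested genes fell. At an unadjusted p under 0.05, 6 were lower and none higher, where 17.9% of all tested genes were lower and 12.2% higher, and the median log2 change was -0.19. Ptpn22, a phosphatase that dampens T cell receptor signals, fell from 57.2 ± 3.59 to 42.7 ± 4.09 FPKM (SD over 3 libraries, -0.42 on the log2 scale, adjusted p = 0.0128). Dgka, a diacylglycerol kinase gene, fell from 57.4 ± 1.35 to 43.7 ± 3.05 FPKM. Inpp5d, the lipid phosphatase SHIP-1, had a log2 change of -0.39 and the adaptor gene Sla2 of -0.37. With vehicle replicate 1 left out 1 gene fell, with vehicle replicate 2 left out none, and with vehicle replicate 3 or LPC replicate 3 left out 2. Ptpn22 missed without vehicle replicate 2 (0.0655), and Dgka without vehicle replicate 1 (0.054) or 2 (0.063). Inpp5d missed without any 1 vehicle replicate (0.0819 to 0.12) and without LPC replicate 3 (0.0986), and Sla2 missed without any 1 library (0.051 to 0.154). After median centring 2 genes of the list fell, with Inpp5d (0.0724) and Sla2 (0.0889) missing, and with no filter on low values 1 fell. Sla2 also missed after quantile normalization (0.0904).

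Of 25 tested genes that regulate the transcripts or proteins of these families 4 fell, none rose and 21 did not pass (limma), where 7.91% of all tested genes fell. At an unadjusted p under 0.05, 7 were lower and 1 higher, where 17.9% of all tested genes were lower and 12.2% higher, and the median log2 change was -0.09. Cmtm6, which encodes a membrane protein that stabilizes PD-L1 at the surface, was listed at 33.0, 32.1 and 31.5 FPKM with vehicle and at 25.0, 27.0 and 25.7 FPKM with LPC (log2 change -0.31, adjusted p = 0.0309). Zc3h12a, which encodes Regnase-1, an RNase that degrades transcripts such as Icos, fell from 26.0 ± 1.34 to 20.4 ± 2.44 FPKM (SD, n = 3 each; adjusted p = 0.0418). The AP-1 subunit genes Jun and Fos fell by 0.48 and 0.43 on the log2 scale (adjusted p = 0.0119 and 0.0149). Irf1, which mediates induction of Cd274 by interferon-gamma, stood at 97.4 ± 8.16 FPKM with vehicle and 109.4 ± 5.15 with LPC, a change that did not pass (0.17, adjusted p = 0.237). With vehicle replicate 1 left out no gene fell, with vehicle replicate 2 left out 1, and with vehicle replicate 3 or LPC replicate 1 left out 2. Cmtm6 missed without any 1 vehicle replicate (0.0723 to 0.144) and without LPC replicate 1 (0.0828). Zc3h12a missed without any 1 vehicle replicate (0.095 to 0.122), without LPC replicate 3 (0.0914) and after median centring (0.0666). After median centring 3 genes of the list fell, and with no filter on low values 1 fell. Jun missed without vehicle replicate 1 (0.0637), and Fos with vehicle replicate 1 (0.0552), vehicle replicate 2 (0.07) or LPC replicate 1 (0.0607) left out.

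Libraries of a group differed along shared lines for these genes. LPC replicate 2 was the highest LPC library for 6 of the 8 tested genes, the exceptions being Cd80 and Cd47, for which it was LPC replicate 3. Over all tested genes LPC replicate 2 was the highest in 47.3%. Vehicle replicate 2 was likewise the highest vehicle library for 6 of 8, against 39.4% of all tested genes. The coefficient of variation was larger with LPC than with vehicle for 6 of 8 genes, and for 75.1% of all tested genes.

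Across the 6 libraries the log2 values of Icos followed those of Cd274 (Pearson r = 0.98) and Cd200 (0.97), and Cd274 followed Cd200 (0.97). These correlations share the libraries and the difference between groups, and are given as a description. With the group means removed, r was 0.96 for Icos and Cd274, 0.91 for Icos and Cd200, and 0.82 for Cd274 and Cd200. Cd80 with the group means removed followed Cd47 (0.88) and not Cd274 (-0.23). Among 7561 other tested genes with a mean of 5 FPKM or more, leaving out clone-type and predicted-gene symbols such as those ending in Rik, those most like each gene over the 6 libraries were Hdgfrp3 and Sla for Icos (r of 0.9998 and 0.9978), N4bp2l1 and Ist1 for Cd274 (0.9984 and 0.997), and Atp2b1 and Pitpnc1 for Cd200 (0.997 and 0.9961). For the others they were Synj2bp-cox16 and Slc39a13 for Cd80, Mapk1ip1 and Psme2b for Pdcd1lg2, Rars and Hnrnpf for Cd86, Ppp1r12a and Thoc2 for Cd28, and Tmem126a and Tex30 for Cd47, with r of 0.9881 to 0.9982. With 6 libraries many genes reach a high r, and 336 genes had an r over 0.95 with Cd274, 405 with Icos and 417 with Cd200. The counts were lower for Pdcd1lg2 (87), Cd28 (49), Cd80 (46), Cd47 (38) and Cd86 (36).

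**Figure D5:**
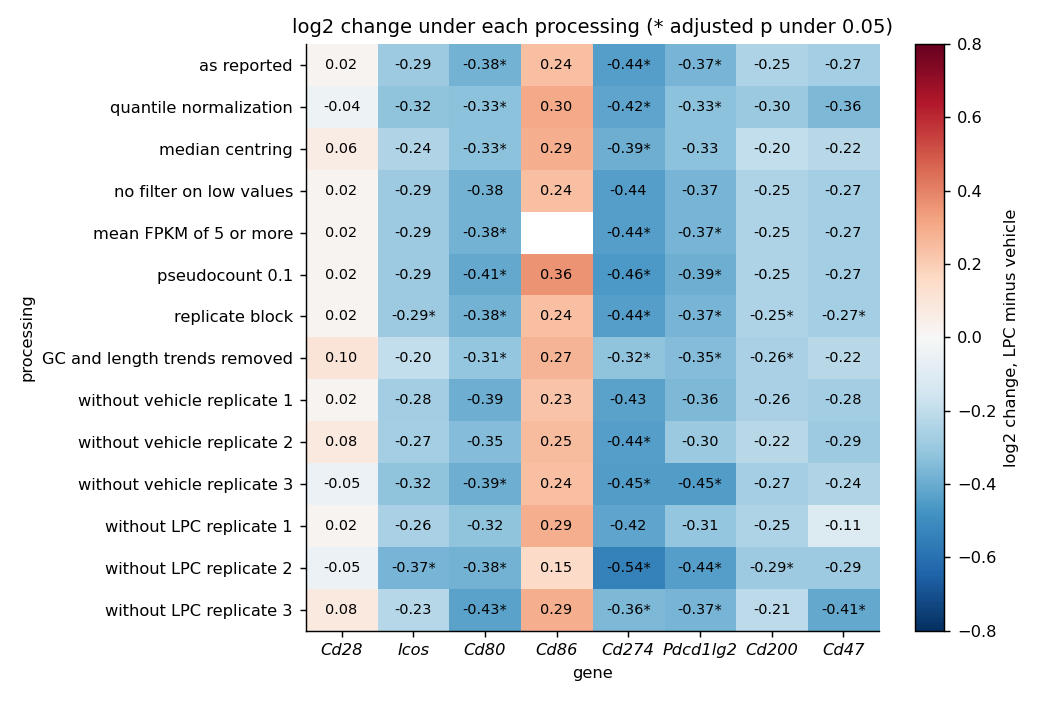
Log2 change with LPC (number and colour) of each of the 8 tested genes (columns) as reported and under each alternative processing (rows), with a star where the adjusted p was under 0.05 and a blank where the gene was not tested. Cd80, Cd274 and Pdcd1lg2 are negative in every row and lose the star without vehicle replicate 1 or LPC replicate 1 and with no filter on low values.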

How the data were processed

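Expression was measured in 6 RNA sequencing libraries, 3 per group, grouped by the agent in the labels. Reads from a BGISEQ-500 were aligned to GRCm38 with Bowtie2 and summarized as FPKM by RSEM by the authors, per the labels' protocols; their versions are not stated there. Each deposited file holds the FPKM of 18046 genes in 1 library and no read total. RSEM divides reads shared between genes by estimate. Depth (19.00 to 19.50 M reads) was estimated from low values of genes with 1 listed transcript. They lay 0.18 to 0.185 of a read from whole reads on average, and 0.236 or more with shuffled lengths. No count test was used.

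Of the gene identifiers 99.3% matched the RefSeq table of GRCm38.p6, which gave coordinates, and 24 symbols stored as dates were restored. In R 4.3.3, limma 3.58.1 (with an intensity trend and no term besides group) was fitted on log2(FPKM + 1) for the 10138 genes that reached 1 FPKM in at least 3 libraries. Adjustment was by Benjamini-Hochberg over all of them. Changes on this scale are LPC minus vehicle and understate those of low genes. Alternatives were quantile normalization, median centring, no filter, a filter at a mean of 5 FPKM, a smaller pseudocount (0.1), a block for the replicate number, leaving out each library, and removal of GC and length trends. The text names all 9 genes, up to 6 called genes of each pathway list, 10 preset relatives, and the 2 genes most correlated with each member. The members, lists and alternatives were chosen with earlier results of these data known, and the motifs, the Icos to Ctla4 ratio and the marker genes named were chosen after values were seen. The ISRE and NF-kB motifs were shortened after first matches were seen. Some genes that the naming rule selects are not reported here.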

Additional observations from a re-analysis of the deposited data

How the results depend on the processing

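The count of members that passed, 3, was 0 with no filter on low values (16899 genes tested), 6 with the replicate number as a block, and 0 to 5 when 1 library was left out. Over all genes the count of 1392 was 464 with no filter, 2841 with the block, and 513 to 2026 when 1 library was left out. Deviations from the group means correlated at 0.018, 0.562 and 0.406 in the same-numbered pairs 1, 2 and 3. Vehicle replicate 3 with LPC replicate 2 gave -0.447, and vehicle replicate 2 with LPC replicate 3 gave -0.498. Replicates 2 and 3 correlated best with the library of their own number, while vehicle replicate 1 correlated best with LPC replicate 3 (0.065). Deviations within a group sum to 0, so these correlations are not independent of one another. Whether the replicate numbers pair the libraries was not tested. Under that block Icos, Cd200 and Cd47 also passed (adjusted p = 0.0105, 0.0198 and 0.0379). Cd28 turned negative with quantile normalization (-0.04) and when vehicle replicate 3 or LPC replicate 2 was left out (-0.05 in both, over a range of -0.05 to 0.08 when 1 library was left out), and did not pass in any of 13 alternatives. The other 7 tested members kept their direction in every alternative that tested them. Cd86 was not tested at a mean FPKM of 5 or more. A fit without 1 library has less power. Cd200r1, at 0 to 4 estimated reads, was too shallow for a comparison.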
